A study of Mus musculus with 2 samples.

Results

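The Krüppel-like factors (Klf) are a family of transcription factors, and 9 of them were examined, chosen by name: Klf2, Klf3, Klf4, Klf5, Klf6, Klf7, Klf9, Klf13 and Klf15. All 9 were found among the 27998 genes of the matrices. Their levels were read in jejunal crypts, the glands at the base of the small intestinal lining, from 2 male mice aged 12 months that lack the microRNA miR-375 in the whole body (375KO). The deletion was made with CRISPR/Cas9 in FVB x B62J F1 embryos, the line was backcrossed to B6 albino mice for several generations, and the labels give the strain as C57BL6/2J. Because every cell of the body lacks the microRNA, the lymphocytes in the samples lack it too. Each mouse gave 1 single-cell library, and both libraries belong to the same group. Wild-type libraries were not analysed here, so the values say nothing of what the deletion changed, and each comparison is between cell types of the same 375KO mice.

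Klf proteins bind GC-rich and CACCC-type DNA through zinc fingers at the end of the protein, and the part before the fingers decides whether a member activates or represses. In the gut lining, Klf5 is known as a factor of dividing crypt cells and Klf4 as a factor of cells that have left the cycle, including goblet cells, which make mucus. Klf2 is known for keeping lymphocytes at rest and for its response to blood flow in vessels. Klf6 is an early response gene in many tissues, Klf3 is a repressor that recruits CtBP proteins, and Klf9 and Klf13 recruit the Sin3 corepressor. Klf9 and Klf15 respond to glucocorticoid hormones, and Klf7 is known from the development of neurons.

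The authors kept 2082 cells of mouse 1 with 44017234 unique molecular identifiers (UMIs, each standing for 1 captured RNA molecule), and 1193 cells of mouse 2 with 22163354 UMIs. No cell barcode was shared by the libraries. Counts were summed over the cells of each of 10 annotated types in each mouse, since cells of the same mouse are not replicates, and the sums held between 18 and 931 cells. Levels are given as UMIs per 1000000 UMIs of the sum (CPM), mouse 1 before mouse 2, with exact Poisson 95% intervals that cover counting error only. The authors assigned the types from the same counts that are compared here, and 42 of 46 marker genes were highest in their own type in both mice. A microRNA gene has no row of its own in these matrices, so the deletion could not be checked here.

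Some libraries and types stand apart in ways that bear on the results. In Paneth cells, the 10 most abundant genes held 82.6% and 81.9% of all UMIs, against 8.62% to 25.7% in the other types, so every other gene has a low CPM there. The tests used TMM factors, which correct for such differences in composition. Without that correction the median of all genes tested lay at a log2 difference of -3.20 in Paneth cells against the other epithelial types. The median mitochondrial percent of a cell was 10.2 in mouse 1 and 5.55 in mouse 2. The annotated intraepithelial lymphocytes (IEL) were 2 different clusters, described with their values below.

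The gene positions are those of GENCODE M21 on the mm10 build. Klf4 lies on the minus strand at chr4:55527143-55532466, and Klf5 on the plus strand at chr14:99298691-99315036. Klf2 lies on the plus strand at chr8:72319033-72321656 and Klf6 on the plus strand at chr13:5861482-5870394. The remaining members are at chr5:64803388-64832901 (Klf3, plus), chr1:64029447-64122282 (Klf7, minus), chr19:23141226-23168134 (Klf9, plus), chr7:63886351-63938915 (Klf13, minus) and chr6:90462576-90475238 (Klf15, plus). Each is on a different chromosome.

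The 250 bases before the RefSeq start are shown for Klf2, Klf4 and Klf6, the members with the largest positive differences in goblet cells. They are at chr8:72318812-72319061 on the plus strand, chr4:55532476-55532725 on the minus strand and chr13:5861239-5861488 on the plus strand (RefSeq, GRCm38.p6), and a RefSeq start can differ by some bases from the GENCODE start above. Capitals mark GGGCGG, the GC box that Sp and Klf proteins bind, or CCGCCC, the same box on the other strand.
Klf2: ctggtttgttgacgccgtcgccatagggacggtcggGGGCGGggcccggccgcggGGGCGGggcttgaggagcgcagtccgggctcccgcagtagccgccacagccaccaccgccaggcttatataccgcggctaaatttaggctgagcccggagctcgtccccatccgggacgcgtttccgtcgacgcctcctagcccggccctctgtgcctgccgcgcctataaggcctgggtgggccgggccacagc
Klf4: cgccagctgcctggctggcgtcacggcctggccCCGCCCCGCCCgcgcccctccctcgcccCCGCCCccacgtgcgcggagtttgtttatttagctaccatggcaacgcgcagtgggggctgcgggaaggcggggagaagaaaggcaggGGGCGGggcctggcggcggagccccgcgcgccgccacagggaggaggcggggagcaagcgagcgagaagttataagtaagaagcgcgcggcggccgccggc
Klf6: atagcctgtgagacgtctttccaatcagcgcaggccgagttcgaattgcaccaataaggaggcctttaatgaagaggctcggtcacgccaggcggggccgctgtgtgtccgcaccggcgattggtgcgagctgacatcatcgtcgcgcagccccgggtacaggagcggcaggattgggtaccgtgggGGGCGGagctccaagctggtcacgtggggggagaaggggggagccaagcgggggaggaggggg
The Klf4 window holds 4 GC boxes, of which a pair overlaps by 1 base, the Klf2 window holds 2 and the Klf6 window holds 1. Of the 8 members with a RefSeq window, 7 hold a GC box on either strand, against 32.74% of 32851 mouse promoters of the same length. CACCC, on either strand and counted wherever it lies, is in 6 of the 8 and in 52.01% of all promoters. The cyclic AMP element TGACGTCA, in 1.55% of all promoters, and the CArG box that serum response factor binds, in 1.47%, have no match in these windows. A match shows only that the letters are there.

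**Figure D1:**
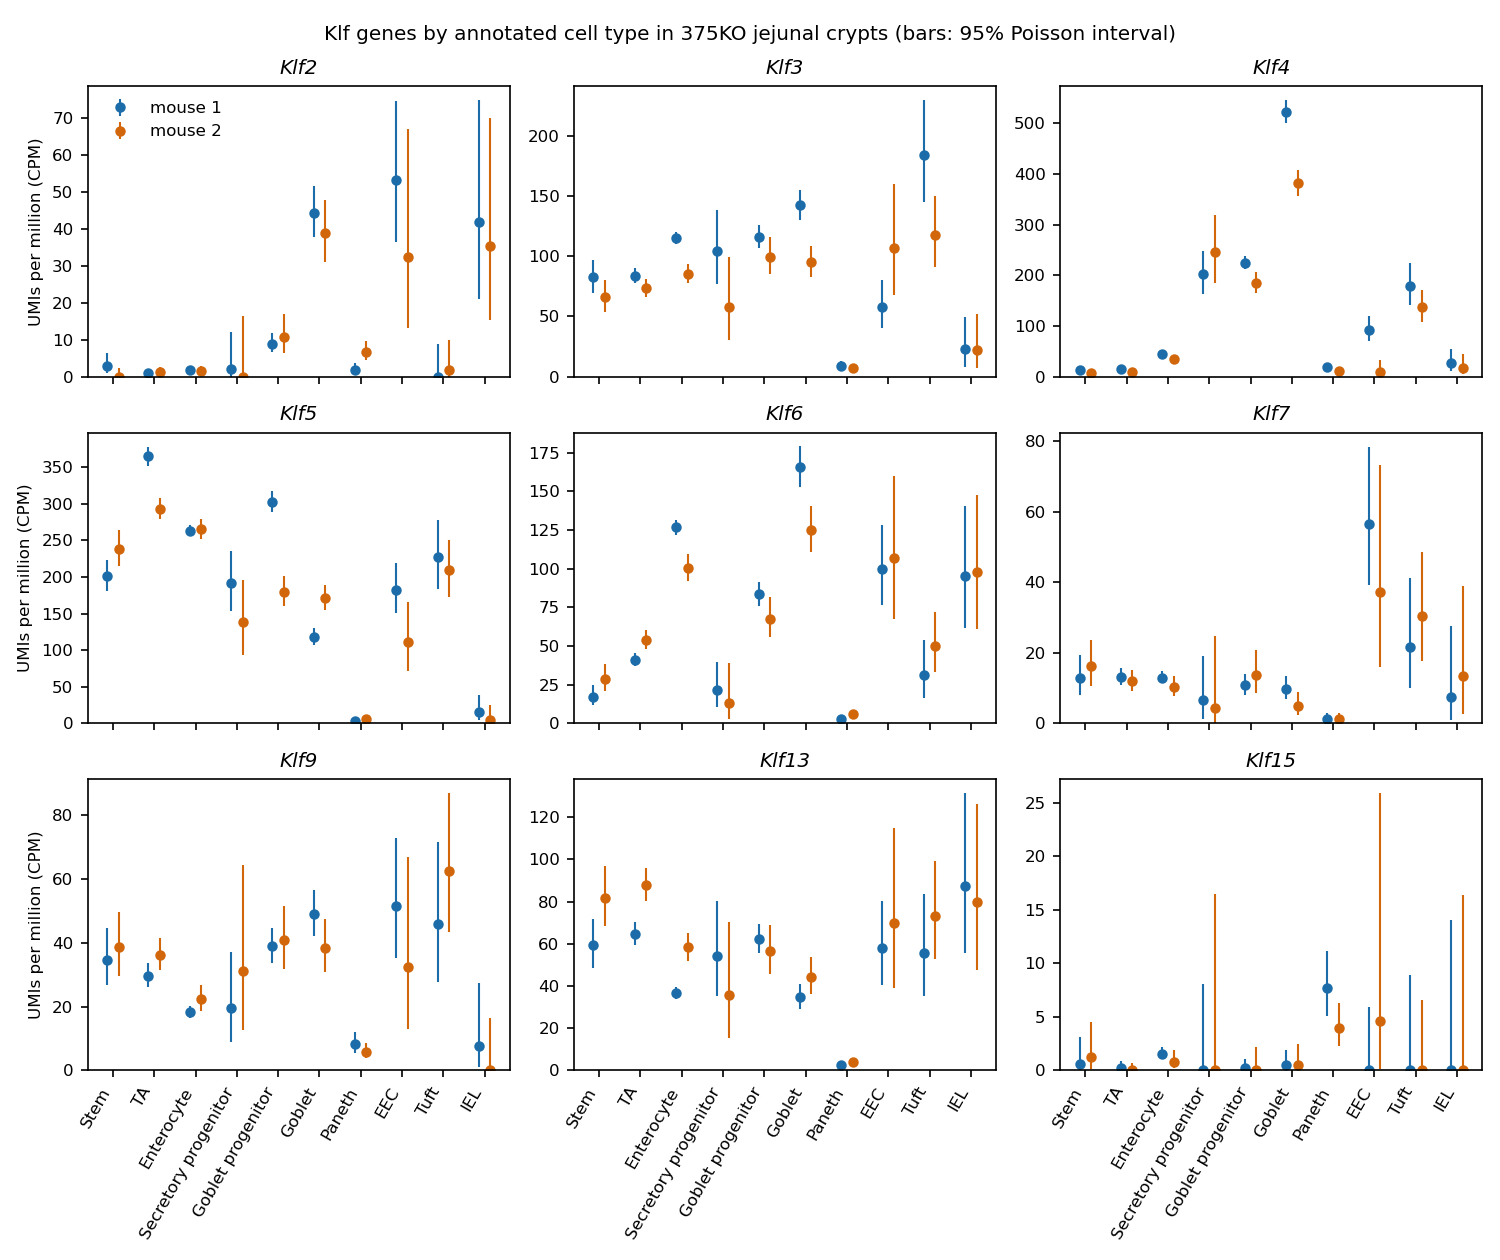
Level of each Klf gene in UMIs per 1000000 UMIs (CPM, vertical axis, a scale of its own in each panel) in the 10 annotated cell types (horizontal axis), with 1 point per mouse and bars for exact Poisson 95% intervals. Klf4 peaks in goblet cells at 522 and 382 CPM, Klf5 in TA cells at 365 and 293 CPM (in enterocytes after TMM scaling), and Klf7 in enteroendocrine cells (EEC) at 56.4 and 37.1 CPM.

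Replicate levels were compared first. Of 90 pairs of gene and type, 58 had at least 10 UMIs in both mice, and in these the CPM of mouse 1 was between 0.471 and 1.99 times that of mouse 2. Of the 58 pairs, 1 was apart by 2-fold or more, Klf5 in Paneth cells. The minimum leaves out pairs that were low in 1 mouse, such as Klf4 in EEC (91.8 and 9.28 CPM) and Klf2 in Paneth cells (1.71 and 6.65 CPM), so the count does not cover those. Over the 9 epithelial types, 8 of the 9 members passed the filter on low counts and entered the fit, and Klf15 did not. In edgeR, with each type set against the mean of the other 8, 31 of the 72 pairs of member and type passed an adjusted p of 0.05, 20 higher and 11 lower. Of all genes tested, between 4.78% (secretory progenitors) and 54.5% (enterocytes) passed in a type, and the share of each type is given below. The plot of log2 fold changes shows them all.

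**Figure D2:**
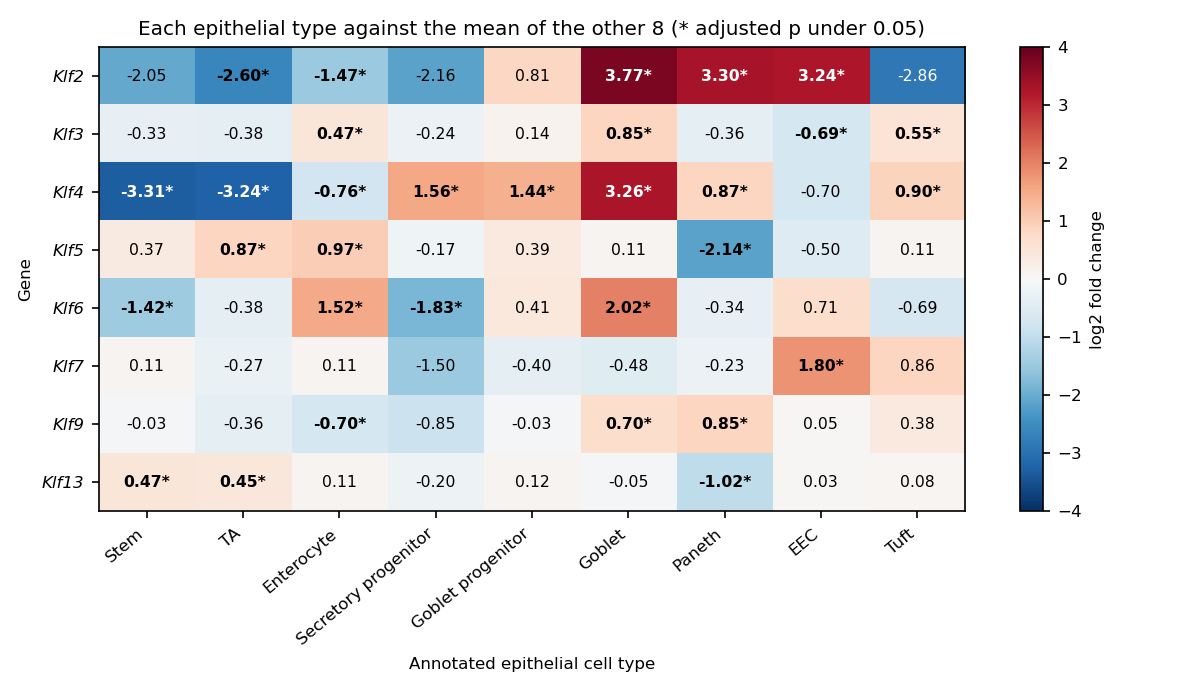
Log2 fold change of 8 Klf genes (rows) in each epithelial type (columns) against the mean of the other 8 types, from edgeR over 2 mice, where red is higher, blue is lower and an asterisk marks an adjusted p under 0.05. Klf4 spans the range from -3.31 in stem cells to 3.26 in goblet cells, and the Klf4 and Klf9 values in Paneth cells turn negative by library totals.

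Klf4 had its highest level in goblet cells and its lowest in stem and TA (transit amplifying) cells. In goblet cells it reached 522 CPM (interval 500 to 546) and 382 CPM (357 to 408). Secretory progenitors had 202 and 245 CPM, and goblet progenitors 224 and 185 CPM. Both progenitor types lay below goblet cells in both mice, and their own ranges overlapped. Tuft cells, which sense the gut contents, had 179 and 138 CPM, and enterocytes, the absorptive cells, had 45.2 and 35.3 CPM. TA cells, the dividing daughters of stem cells, had 14.7 and 8.57 CPM, and stem cells 12.9 and 7.48 CPM. The ranges of stem and TA cells overlapped.

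The share of cells with a Klf4 UMI was 97.8% and 97.1% of goblet cells at a median of 13649 and 15708.5 UMIs per cell, and 10.8% and 8.55% of stem cells at 12282 and 12559 UMIs. Annotated IEL, which are not epithelial, had a Klf4 UMI in 8.0% and 11.1% of cells at 4109.5 and 10225.5 UMIs. The share in stem cells was close to that of this label, but at unlike depths. By CPM Klf4 was higher under the label, at 26.7 and 17.7 CPM from 7 and 4 UMIs, than in stem cells. Whether either share reflects background RNA was not tested. After thinning every cell to 5000 UMIs, the share was 85.5% and 76.1% in goblet cells and 6.62% and 0.855% in stem cells. The thinning left out 1 goblet cell and 3 stem cells of mouse 1.

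Klf5, unlike Klf4, was abundant in TA and stem cells. TA cells had 365 CPM (352 to 378) and 293 CPM (279 to 307), the highest CPM in both mice. After TMM scaling enterocytes were above them, at 269.5 against 262.9 and 255 against 228 CPM, so the first place depends on the scaling. Enterocytes had 263 and 265 CPM, stem cells 201 and 238 CPM, and goblet cells 118 and 171 CPM. Next in the order came enterocytes, goblet progenitors, stem cells and tuft cells, and each overlapped its neighbour. The lowest levels were in annotated IEL, with 15.2 and 4.44 CPM, and in Paneth cells, with 3.13 and 6.65 CPM.

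The share of Klf4 among the summed UMIs of Klf4 and Klf5 put the types in an order that needs no scaling between types, since both genes are read from the same sum. It was 81.6% (exact binomial 95% interval 79.9 to 83.1) and 69.0% (66.4 to 71.6) in goblet cells. It was 42.6% and 50.7% in goblet progenitors, 51.4% and 64.0% in secretory progenitors and 44.0% and 39.7% in tuft cells. It fell to 14.7% and 11.8% in enterocytes, 6.04% and 3.05% in stem cells and 3.87% and 2.84% in TA cells. Stem and TA cells had the lowest shares of all types in both mice. In EEC it was 33.5% and 7.69% (0.946 to 25.1), from 57 and 2 Klf4 UMIs, so in mouse 2 EEC cannot be told from stem and TA cells. In Paneth cells the share was 85.3% (75.3 to 92.4) and 63.3% (51.7 to 73.9), from 75 and 79 UMIs of both genes. UMI counts at the 3′ end depend on how well each transcript is captured, so the share compares types and not the amounts of the 2 proteins.

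Goblet cells differed from the other epithelial types in 5 of the 8 members tested, all higher, where 29.2% of the 11013 genes tested passed in the same contrast. The median of the 8 members was 0.77 on the log2 scale, beside -0.03 for all genes tested. Klf4 had a log2 fold change of 3.26 in edgeR (SE 0.14, adjusted p = 3.43e-14). Klf2 was higher by 3.77 (SE 0.29, adjusted p = 1.39e-10), with 44.4 and 38.9 CPM in goblet cells. TA cells had 1.07 and 1.22 CPM of Klf2, while stem cells, secretory progenitors and tuft cells had at most 5 Klf2 UMIs in a sum and 0 in 1 of the mice. Klf6 was higher by 2.02 (SE 0.17, adjusted p = 2.16e-09), with 166 and 125 CPM. Klf3 was higher by 0.85 (adjusted p = 2.68e-05) and Klf9 by 0.70 (adjusted p = 0.000983). Klf5, Klf7 and Klf13 did not pass, at 0.11, -0.48 and -0.05.

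The same 5 genes were higher in goblet cells than in goblet progenitors, where 29.1% of all genes tested passed. This contrast shares its goblet sums with the one above. Klf2 had 8.93 and 10.8 CPM in the progenitors, and the log2 fold change was 2.63 (SE 0.35, adjusted p = 3.35e-06, edgeR). For Klf4 it was 1.62 (adjusted p = 9.86e-06), and for Klf6, with 83.4 and 67.8 CPM in the progenitors, it was 1.43 (adjusted p = 7.61e-05). Klf9 and Klf3 were higher by 0.65 (adjusted p = 0.0162) and 0.63 (adjusted p = 0.016). These last 2 calls were not made on library totals, where Klf9 had 0.15 (adjusted p = 0.606) and Klf3 0.13 (adjusted p = 0.64).

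Klf4 was the member higher in goblet progenitors against the other epithelial types (1.44, SE 0.16, adjusted p = 1.45e-06, edgeR), 1 of 8 members where 12.1% of all genes passed. In secretory progenitors 2 of 8 members passed, where 4.78% of all genes did. Klf4 was higher there (1.56, SE 0.23, adjusted p = 0.000129) and Klf6 lower (-1.83, SE 0.44, adjusted p = 0.0155), from 10 and 3 Klf6 UMIs. Secretory progenitors had 31 and 19 cells, the smallest epithelial class.

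Within goblet cells Klf2 was uneven. A Klf2 UMI was found in 21.3% and 25.4% of the cells, and a single cell held up to 16 Klf2 UMIs in mouse 1 and 12 in mouse 2. Among goblet cells thinned to 5000 UMIs, 41 of mouse 1 and 19 of mouse 2 kept a Klf2 UMI. Their Klf6 level was 283 and 179 CPM, against 143 and 97.5 CPM in the goblet cells without one. Their Klf4 level was 659 and 632 CPM against 487 and 361 CPM. Fos, a subunit of the AP-1 factor that rises within minutes of a stimulus, was at 1385 and 611 CPM against 614 and 418 CPM. Cells with a Klf2 UMI had higher values of all 3 genes in both mice. Muc2, the main gut mucin, was at 15268 and 3674 CPM against 8588 and 4225 CPM, so it was higher in 1 mouse and lower in the other. The split was made on expression, so these values carry no test.

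Immediate early genes had a high CPM in the types with a high CPM of Klf2. A list of 12 immediate early and heat shock genes, which respond within an hour and are also induced when tissue is dissociated, had a summed level of 3658 and 2394 CPM in goblet cells. It was 3174 and 2892 CPM in EEC, 2361 and 1375 CPM in IEL and 1362 and 1065 CPM in goblet progenitors. Stem cells had 519 and 635 CPM, and TA cells 601 and 721 CPM. Enterocytes had 1206 and 815 CPM and tuft cells 919 and 1023 CPM, near goblet progenitors, although Klf2 was at most 1.79 CPM in these sums. Secretory progenitors had 793 and 763 CPM and Paneth cells 240 and 396 CPM. Goblet cells, EEC, IEL and goblet progenitors also had the highest mean CPM of Klf2. Of the 12 genes, 10 were higher in goblet cells against the other epithelial types and none lower, with a median of 2.00, where 29.2% of all genes passed. Against goblet progenitors 8 were higher, where 29.1% of all genes passed. This was not particular to goblet cells. In the TMM-scaled fit 8 were higher in Paneth cells (median 1.33) and 7 in EEC (median 1.43), with none lower in either. There 27% and 21.6% of all genes passed. The part of these genes' response in the Klf results was not tested.

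**Figure D3:**
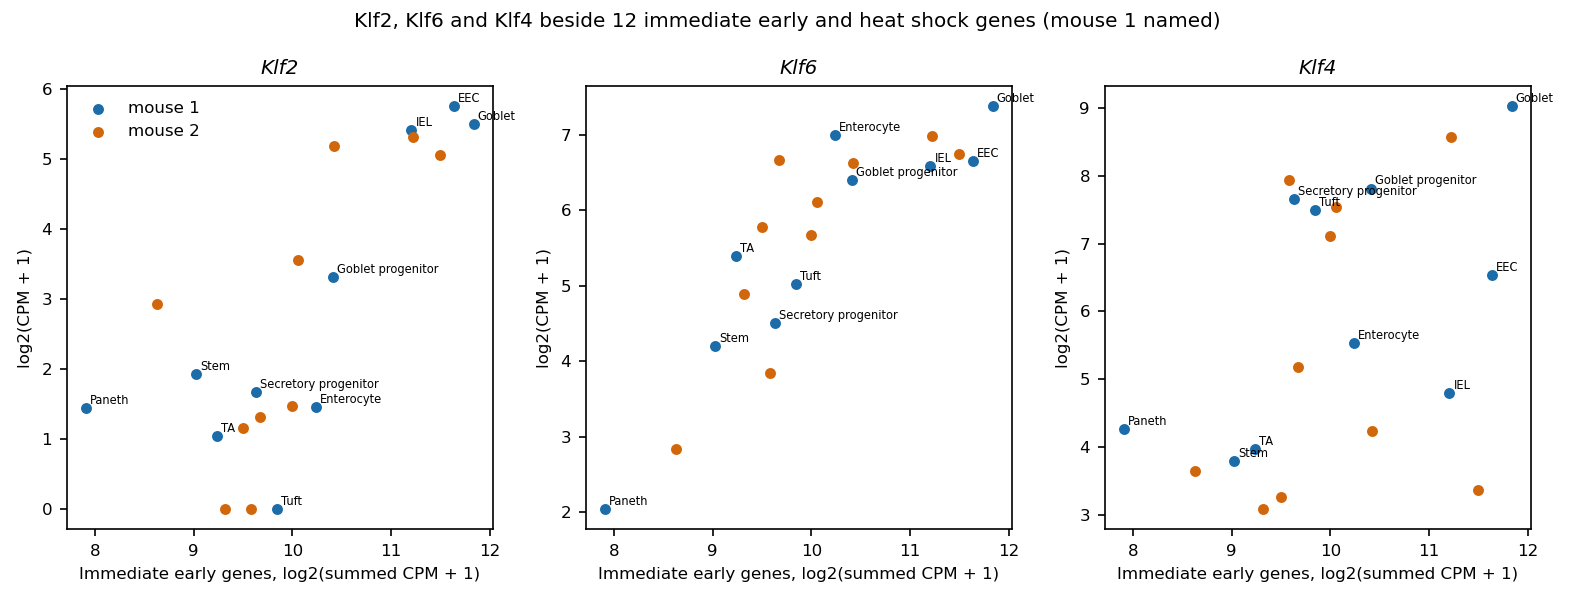
Level of Klf2, Klf6 and Klf4 as log2(CPM + 1) (vertical axes) against the summed level of 12 immediate early and heat shock genes as log2(summed CPM + 1) (horizontal axes), with 1 point per type and mouse and the types of mouse 1 named. Goblet cells, EEC and IEL lie at the upper right for Klf2, while EEC and IEL lie below goblet cells for Klf4.

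Enterocytes, TA cells and stem cells form the absorptive branch with its source. Between enterocytes and TA cells, 3 of 8 members differed, all higher in enterocytes, where 51.7% of all genes tested passed. For Klf4 the log2 fold change in edgeR was 2.20 (SE 0.26, adjusted p = 2.44e-07). Klf6, with 127 and 101 CPM in enterocytes and 41.1 and 53.9 CPM in TA cells, was higher by 1.69 (SE 0.23, adjusted p = 1.79e-06). Klf3, with 115 and 85.1 CPM against 83.7 and 73.4 CPM, was higher by 0.75 (adjusted p = 0.00114), a call lost by library totals (0.34, adjusted p = 0.147), after thinning (0.36, adjusted p = 0.124) and with no term for the mouse (0.76, adjusted p = 0.0907). Klf5 did not pass, at 0.09 (SE 0.24, adjusted p = 0.777). With only cells of at most 10% mitochondrial reads, which left 150 of 931 enterocytes in mouse 1, Klf4 had 1.16 (adjusted p = 0.129).

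Against the mean of the other 8 types, 6 of 8 members passed in enterocytes, where 54.5% of all genes did. Klf6 was higher by 1.52 (adjusted p = 6.24e-08, edgeR), Klf5 by 0.97 (adjusted p = 0.000189) and Klf3 by 0.47 (adjusted p = 0.00564). Klf4 was lower by -0.76 (adjusted p = 0.00156), Klf9 by -0.70 (adjusted p = 0.000437) and Klf2 by -1.47 (adjusted p = 0.043). The Klf2 value rests on 34 and 8 UMIs and was lost in 4 of the alternatives. In TA cells 4 of 8 members passed, where 32.8% of all genes did. Klf5 was higher by 0.87 (adjusted p = 0.00129) and Klf13 by 0.45 (adjusted p = 0.0114), while Klf4 was lower by -3.24 (adjusted p = 5.62e-10) and Klf2 by -2.60 (adjusted p = 0.00849), from 9 and 7 Klf2 UMIs. The Klf2 call was lost after thinning (-1.67) and with the lower limit on mitochondrial reads (-1.96), at an adjusted p of 1 in both.

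Stem cells differed in 3 of 8 members from the other epithelial types, where 25.6% of all genes passed. Klf4 was lower by -3.31 (SE 0.29, adjusted p = 3.95e-08, edgeR) and Klf6, with 17.4 and 28.7 CPM, by -1.42 (adjusted p = 0.000337). Klf13 was higher by 0.47 (adjusted p = 0.0288), and without Paneth cells in the comparison by 0.37 (adjusted p = 0.0878). Klf13 in TA cells was likewise at 0.34 without Paneth cells (adjusted p = 0.0576). Between stem and TA cells 0 of 8 members passed, where 4.83% of all genes did. At an unadjusted p under 0.05 there was 1, Klf6, lower in stem cells by -0.92 (SE 0.29, adjusted p = 0.0771, edgeR), and DESeq2 also gave 0 after adjustment. Klf6 passed with no filter on low counts (-1.04, adjusted p = 0.000914), on library totals (-1.05, adjusted p = 0.0143) and without Paneth cells (-0.91, adjusted p = 0.041). For Klf4 the difference between stem and TA cells was -0.06 with an SE of 0.38, and for Klf5 -0.45 with an SE of 0.25.

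The authors divided the enterocytes into 5 clusters, and the members did not move together across them. The clusters were ordered here by the mean summed level of 5 enterocyte markers, from cluster 2 (2097 and 715 CPM) through clusters 9, 6 and 3 to cluster 1 (63778 and 56243 CPM). Klf5 was at 363 and 332 CPM in cluster 2, 322 and 269 CPM in cluster 9, 310 and 300 CPM in cluster 6, 220 and 232 CPM in cluster 3 and 179 and 128 CPM in cluster 1. It was highest at the low end of the markers and lowest at the high end in both mice. Klf4 was at 5.14 and 7.86 CPM in cluster 2 and at 111 and 102 CPM in cluster 1, but also at 68.9 and 53.0 CPM in cluster 9, above clusters 6 and 3. Klf6 was at 50.9 and 51.1 CPM in cluster 2 and at 200.1 and 146 CPM in cluster 9. So Klf6 did not follow the markers, while clusters 2 and 1 differed in all 3 genes beyond their counting intervals. Clusters were made from the expression of these cells, so these values are a description.

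**Figure D4:**
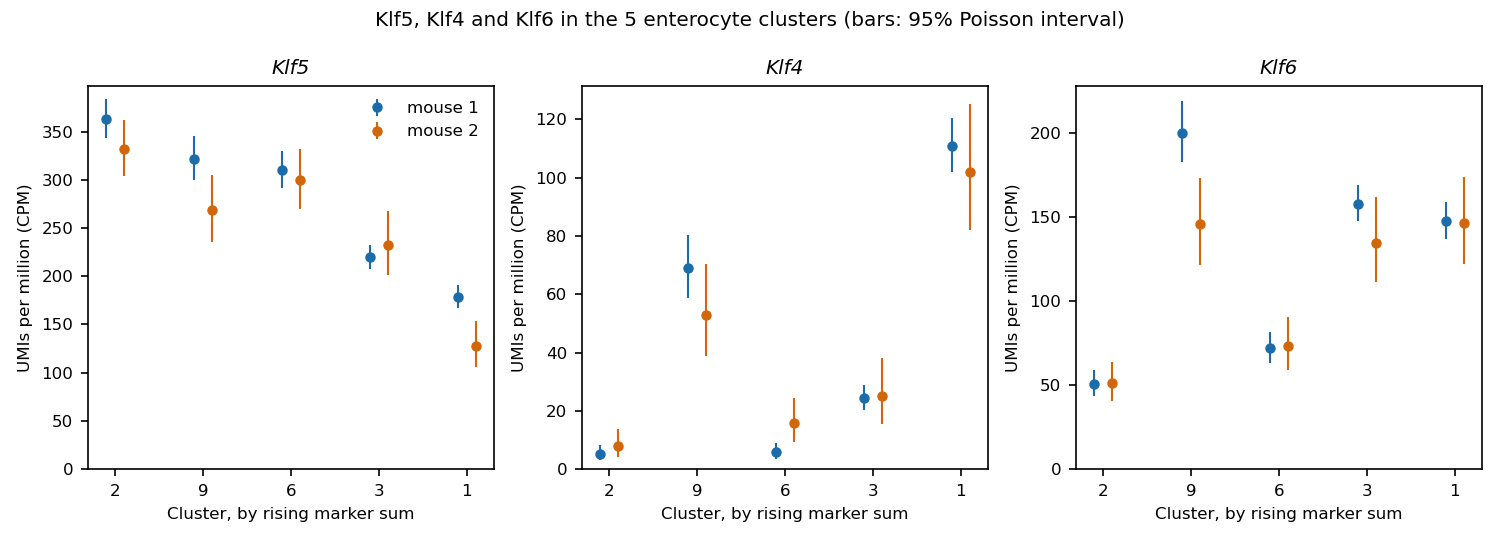
Level of Klf5, Klf4 and Klf6 in UMIs per 1000000 UMIs (CPM, vertical axes) in the 5 enterocyte clusters of the authors (horizontal axes, from the lowest to the highest mean sum of 5 enterocyte markers), with 1 point per mouse and exact Poisson 95% intervals. Klf5 goes from 363 and 332 CPM in cluster 2 to 179 and 128 CPM in cluster 1, and Klf4 from 5.14 and 7.86 CPM to 111 and 102 CPM.

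Klf5 also varied among the 4 TA clusters. It was at 455 and 342 CPM in cluster 5 and 383 and 336 CPM in cluster 8, against 249 and 254 CPM in cluster 10 and 259 and 167 CPM in cluster 13. Clusters 5 and 8 were above the other two in both mice.

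Genes known as activated by Klf5 and by Klf4 were read in the same contrasts. Most genes of the Klf5 list act in the cell cycle, and TA cells are dividing cells. Cell cycle genes mark that type, so their level there is no separate measure of Klf5. Where 32.8% of all genes passed, 5 of 6 genes listed for Klf5 were higher in TA cells against the other types and none lower. They were the cell cycle genes Cdk1 (3.01, adjusted p = 1.36e-12, edgeR), Ccnb1 (2.70, adjusted p = 7.31e-10), Birc5 (2.70, adjusted p = 4.49e-05) and Ccnd1 (1.04, adjusted p = 0.0446), and the receptor gene Egfr (0.64, adjusted p = 0.0406). Between enterocytes and TA cells, where Klf5 itself did not pass, 4 of the 6 were lower in enterocytes and 1, the growth factor gene Pdgfa, was higher (1.10, adjusted p = 0.000112). In that contrast 51.7% of all genes passed. Of 3 genes listed for Klf4, Alpi, the intestinal alkaline phosphatase, was higher in enterocytes than in TA cells (3.72, adjusted p = 1.74e-09) and Cdkn1a, a brake on the cell cycle, as well (2.14, adjusted p = 0.00553). Cdkn1b, another such brake, was lower (-0.66, adjusted p = 0.00513). In goblet cells, where Klf4 was highest, none of these 3 passed against the other types, beside 29.2% of all genes. The median of the 3 there was -0.14.

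EEC, the hormone cells of the gut, had 54 and 20 cells, and 3 of 8 members passed there where 21.6% of all genes did. Klf2 had 53.2 CPM (36.6 to 74.7, 33 UMIs) and 32.5 CPM (13.1 to 67.0, 7 UMIs) and was higher by 3.24 (SE 0.49, adjusted p = 1.64e-05, edgeR). Klf7 had 56.4 and 37.1 CPM, against 21.8 and 30.4 CPM in tuft cells and at most 16.2 CPM in every other type, and was higher by 1.80 (SE 0.32, adjusted p = 7.19e-05). For Klf7 EEC stood above all other types in both mice, but in mouse 2 the EEC value came from 8 UMIs. Its interval there, 16.0 to 73.2 CPM, holds the value of tuft cells. For Klf2 the CPM ranges of EEC and goblet cells overlapped, while after TMM scaling EEC had 34.6 and 23.0 CPM, below goblet cells at 46.2 and 42.3 CPM. Klf3 was lower by -0.69 (adjusted p = 0.0365), but by library totals its difference was 0.0048 and in mouse 2 alone it was 0.13. The EEC sum of mouse 2 held markers of lymphocytes, with a summed level of 1188 CPM over 6 IEL markers, against 0 in mouse 1. In that mouse 6 of the 20 EEC had such a UMI. The 14 EEC without one had 6 of the 7 Klf2 UMIs and 6 of the 8 Klf7 UMIs, at 38.6 CPM for each gene.

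In tuft cells 2 of 8 members passed, where 16% of all genes did. Klf4 was higher by 0.90 (adjusted p = 0.00553, edgeR) and Klf3, with 184 and 118 CPM, by 0.55 (adjusted p = 0.0422). The Klf3 call was lost in 5 of the alternatives, which gave 0.49 to 0.65. Tuft cells had the highest mean Klf3 CPM, with a range that overlapped that of goblet cells, while after TMM scaling goblet cells were above tuft cells, at 148 against 125 and 104 against 86.2 CPM. Klf2 was nearly absent from tuft cells, with 0 UMIs in 40 cells of mouse 1, which allows up to 7.25 CPM, and 1 UMI in 38 cells of mouse 2.

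Klf9 had 45.9 and 62.5 CPM in tuft cells, a range that overlapped those of goblet cells and EEC. This was its highest mean CPM, but after TMM scaling Paneth cells (54.7 and 48.8 CPM) were above tuft cells (31.3 and 45.7 CPM) in both mice. Enterocytes had 18.2 and 22.2 CPM of Klf9. Genes of glucocorticoid, thyroid hormone and clock response did not share this order. Of 9 such genes, 5 were higher in enterocytes and 2 lower, with a median of 1.32, where 54.5% of all genes passed. Among the higher ones were Sgk1, a kinase induced by glucocorticoids (5.51, adjusted p = 5.54e-16, edgeR), and Tsc22d3, another glucocorticoid target (1.71, adjusted p = 3.01e-11). Fkbp5, a further glucocorticoid target, was lower (-1.52, adjusted p = 0.000862). Among the 8 tested members Klf13 had the narrowest span of CPM relative to its level, with 34.6 to 88.0 CPM in every type other than Paneth cells.

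Paneth cells, which secrete antimicrobial peptides at the crypt base, had at most 18.2 CPM of any member. Klf4 had 18.2 and 11.5 CPM, Klf2 1.71 and 6.65 CPM and Klf9 8.25 and 5.73 CPM, from at most 64 UMIs of a gene. After TMM scaling these became 121 and 97.6, 11.3 and 56.6, and 54.7 and 48.8 CPM. In this scaled fit 5 of 8 members passed, where 27% of all genes did. Klf4 was higher by 0.87 (adjusted p = 0.00736, edgeR) and Klf9 by 0.85 (adjusted p = 0.00802), but both were lower by library totals, at -2.34 (adjusted p = 3.71e-10) and -2.36 (adjusted p = 1.33e-11). The Klf4 call was lost after thinning (0.71, adjusted p = 0.394), where Klf9 turned to -0.83 (adjusted p = 0.715). Klf2 was higher by 3.30 (adjusted p = 1.59e-05), and by library totals at 0.07 (adjusted p = 0.925). In mouse 1 a single Paneth cell held 5 of the 6 Klf2 UMIs. Klf5 was lower by -2.14 (adjusted p = 9.25e-05) and Klf13 by -1.02 (adjusted p = 0.0068). Both stayed lower by library totals, but nearly any gene does so there. Of 11013 genes tested 9821 passed in that setting and 144 were higher, so it cannot decide on either call. Relative to the shift of -3.20 that library totals give all genes in Paneth cells, Klf4, Klf9 and Klf2 lie above the median gene and Klf5 below it.

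Klf15 was the rarest member and did not pass the filter on low counts. Paneth cells had 7.68 CPM (5.06 to 11.2, 27 UMIs) and 3.90 CPM (2.27 to 6.24, 17 UMIs). Enterocytes had 29 and 4 UMIs, of which 23 and 3 were in cluster 1, at 4.69 and 3.40 CPM. After TMM scaling the Paneth sums had 50.9 and 33.2 CPM of Klf15, and with no filter on low counts Klf15 was higher in Paneth cells against the other types (7.40, SE 0.64, adjusted p = 2.35e-29, edgeR). The size of this difference is uncertain, since tuft cells and secretory progenitors had 0 Klf15 UMIs. It also rests on the TMM scaling of the Paneth sums, and Klf15 was not tested on library totals. Clusters 2 and 6, lower in enterocyte markers, had no Klf15 UMI in either mouse. No other type held more than 2 Klf15 UMIs in a mouse. A Klf15 UMI was found in 30.8% and 27.8% of Paneth cells, at a median of 44683.5 and 80820 UMIs per cell, and in 3.01% and 1.05% of enterocytes, at 16975 and 13405 UMIs. After thinning to 5000 UMIs the shares were 3.85% and 0.0% in Paneth cells and 0.968% and 0.262% in enterocytes. Since 10 genes take most UMIs of a Paneth cell, thinning to a common total leaves few UMIs for any other gene there.

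The annotated IEL were compared with the 9 epithelial types in a fit of 11402 genes. There 5 of 8 members passed, 1 higher and 4 lower, where 30% of all genes did. Klf5 was lower by -4.23 (SE 0.52, adjusted p = 1.08e-06, edgeR), Klf9 by -3.31 (adjusted p = 0.000239, from 2 and 0 UMIs in IEL, so its size is uncertain), Klf3 by -2.16 (adjusted p = 3.14e-05) and Klf4 by -1.95 (adjusted p = 0.000693). Klf2 was higher by 2.73 (SE 0.60, adjusted p = 0.00067), with 41.9 CPM (20.9 to 75.0, 11 UMIs) and 35.5 CPM (15.3 to 69.9, 8 UMIs). After thinning to 5000 UMIs, which left 11 of 50 IEL in mouse 1, Klf2 had 1.93 (adjusted p = 0.283). Klf13 had 87.6 and 79.8 CPM in IEL, the highest mean of all types, but its ranges overlapped those of TA cells and it did not pass, at 0.55 (adjusted p = 0.123).

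The Klf2 UMIs under the IEL label lay in 1 of its 2 clusters. Cluster 11, with 28 and 5 cells, had no Klf2 UMI in either mouse, which allows up to 18.5 and 41.9 CPM, and held 500 and 92 UMIs of Cd3g, a chain of the T cell receptor complex. Cluster 14, with 22 and 13 cells, held all 11 and 8 Klf2 UMIs, at 110 (54.8 to 196) and 52.0 CPM (22.4 to 102), so the clusters differ beyond counting error in mouse 1, while in mouse 2 the limit for cluster 11 lies inside the interval of cluster 14. Cluster 14 had 0 and 28 Cd3g UMIs. Its cells did not share 1 identity between the mice. Macrophage markers summed to 4809 CPM in mouse 1 and 84.5 CPM in mouse 2, while B cell markers summed to 0 and 1696 CPM. The Klf2 value of the IEL label is therefore that of cluster 14. In mouse 1 this cluster had 0 UMIs of Cd3g and of Gzma, but 17 of Cd8a and 14 of Itgae, which are also IEL markers. Fewer cells with Klf2 and less Klf2 per cell cannot be told apart in these sums.

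For each member the genes of most similar level over the 20 sums were found among 5254 genes of mean 20 CPM or more, by Pearson's r of log2(CPM + 1). The sums share their 2 libraries and differ in depth, so r is a description. For Klf2 these were Dusp1, a phosphatase of MAP kinases (r = 0.90), Fos (0.87) and Fosb (0.84), all immediate early genes. For Klf6 they were Zfp36, which promotes decay of short-lived messages (0.92, and 0.84 in the 18 sums without Paneth cells), Sec22b (0.88, and 0.73) and Ccdc71l (0.88, and 0.76). For Klf4 they were Yipf6 (0.92), Ano7 (0.89) and Clca1, a protein of intestinal mucus (0.87). For Klf5 they were Atp10b (0.97), Sfn (0.96) and Tpm1 (0.96), and for Klf9 Tmprss4 (0.97), Lsr (0.96) and Elf3, an ETS factor of epithelia (0.96).

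Some of the likenesses rested on Paneth cells. The genes nearest to Klf13 were Mrpl41, Ythdc1 and Hnrnpa2b1, at 0.97 to 0.98, which became 0.70 to 0.79 without the Paneth sums. Those nearest to Klf15, Gm15292, Gm15293 and Gm7849, had 0.70 to 0.78 with Paneth cells and -0.09 to 0.40 without. Klf3 was closest to Cmas (0.95), Scamp2 (0.95) and Efnb1 (0.94), and Klf7 to Tshz1 (0.90), Zmym5 (0.89) and Arl2 (0.89). For these 2 members r stayed between 0.78 and 0.87 without Paneth cells.

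Of 17 other Klf and Sp genes, 8 passed the filter, and Klf14, Sp7 and Sp8 had no UMI in any of the 3275 cells. Klf10, which is induced by TGF-β, reached the highest CPM of the list, with 90.3 ± 36.5 CPM in EEC (SD, n = 2) and 36.3 ± 11.3 CPM in goblet cells. It was higher in EEC (1.37, SE 0.24, adjusted p = 4.54e-05, edgeR) and in goblet cells (0.66, adjusted p = 0.00327) and lower in tuft cells (-1.56, adjusted p = 0.00137). Sp5, a target of Wnt signalling, was chosen for mention after its values were seen, and was higher in stem cells than in TA cells (1.99, adjusted p = 0.0015). Of the 8 members tested, none passed in that contrast.

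Corepressors and other partners of Klf proteins were counted in the same contrasts. Of 13 genes, among them the CtBP genes that Klf3 uses and the Sin3 genes that Klf9 and Klf13 use, 1 was higher and 3 lower in goblet cells, where 29.2% of all genes passed, with a median of -0.33. In enterocytes against TA cells, where 51.7% of all genes passed, 3 were higher and 5 lower, with a median of -0.26, beside 0.06 for all genes tested. In secretory progenitors and in stem against TA cells none passed.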

How the data were processed

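Jejunal crypt cells of 2 miR-375 knockout mice were measured by droplet single-cell RNA-seq of the 3′ ends of transcripts (v2 chemistry). The authors aligned reads to mm10 and made the deposited UMI count matrices, and the labels name Cell Ranger 3.0.1 and Seurat 3.2.1. Per their methods the authors kept cells with at least 1500 genes and at most 25% mitochondrial reads, removed doublets and corrected for free RNA. Whether the deposited counts carry that correction was not settled here. The mitochondrial percent values and the cell types and clusters are those deposited by the authors. The 3275 annotated cells matched the matrices by barcode, and 3272 had a total within 0.5% of that in the study-wide table. The tables also hold 2937 columns of cells from other series, left out here, and the annotation gives no cell cycle phase to compare.

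Raw UMI counts were summed per mouse and type. Sums were tested in edgeR 4.0.16 (R 4.3.3, limma 3.58.1) with filterByExpr, TMM and a robust quasi-likelihood fit with terms for type and mouse, on 18 epithelial sums, or 20 with IEL for the IEL comparison. P-values are two-sided and were adjusted by Benjamini-Hochberg over all genes tested at 0.05. They rest on how far differences between types varied from 1 of these 2 mice to the other, pooled over the types. The fit also draws each gene's spread towards that of all genes tested, so a p-value does not come from that gene's counts alone. The overall difference between the mice is taken out by the mouse term. The p-values also depend on types drawn from the same expression. The mouse term pairs the sums, since each mouse gave every type. Counting intervals are exact at 95%, and a count of 0 allows up to 3 counts. Scripts were tested on simulated data. DESeq2 1.42.0, other scaling, filters, thinning to 5000 UMIs, a 10% mitochondrial limit and a fit without the mouse term were tried. Klf members and companion lists were chosen with earlier results of these data known. All 9 members are named. A companion gene was open to naming where it reached 20 CPM in a type in both mice or was at 0 throughout, and Sp5 is named outside this rule. For each member the 3 genes of highest r are named.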

Additional observations from a re-analysis of the deposited data

How the results depend on the processing

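Of 44 pairs of gene and comparison with a call, followed over 386 tested alternatives, 339 kept their direction and call, 43 lost the call and 4 reversed. Calls were lost most often with no replicate block (13), that is without the term for the mouse, after thinning (11) and with at most 10% mitochondrial reads (9). Over the 9 epithelial types the number of called pairs of member and type was 31, and 21 with no replicate block, 27 after thinning, 25 with the mitochondrial limit, 38 with no filter on low counts, where Klf15 was tested too, 31 in DESeq2, 33 with median-of-ratios scaling and 31 with IEL in the fit. It was 46 by library totals and 25 without Paneth cells, which were both chosen after seeing the data. The share of all genes tested that passed in a type depended on the setting as well. It was 4.78% to 54.5% in the main fit, 1.77% to 35.8% with no replicate block and 5% to 43.6% after thinning. With the mitochondrial limit it was 3.82% to 41%, with no filter on low counts 3.41% to 35.2% and by library totals 14.4% to 89.2%. The members called in IEL went from 5 to 3 after thinning, where the share of all genes went from 30% to 17.6%. Those called in goblet cells against goblet progenitors went from 5 to 3 with no replicate block, where that share went from 29.1% to 9.48%. Those called in stem against TA cells went from 0 to 1 with no filter on low counts, by library totals and without Paneth cells. In these settings 4.73%, 5.1% and 6.14% of all genes passed, beside 4.83% in the main fit. By library totals Klf3 in EEC turned to 0.0048, Klf4 in Paneth cells to -2.34 and Klf9 in Paneth cells to -2.36. After thinning Klf9 in Paneth cells turned to -0.83. With a single mouse no test is possible, and Klf3 in EEC ranged from -1.18 without mouse 2 to 0.13 without mouse 1. The causes of these changes were not tested. Rare members are limited by depth: Klf15 had at most 29 UMIs in a sum, and EEC of mouse 2, IEL and secretory progenitors held few UMIs of most members.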
